A study of Mus musculus with 4 samples.

Results

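The guanylate-binding proteins (GBPs) are a family of large GTPases, and 8 of the genes that encode them were followed here through the immune cells of a mouse melanoma: Gbp2, Gbp2b, Gbp3, Gbp4, Gbp5, Gbp7, Gbp8 and Gbp9. The members were chosen by gene symbol, and all 8 were present among the 12584 genes of the deposited single-cell table. The cells were CD45+ cells sorted from tumours of YUMM1.7-OVA RTT, a mouse melanoma line that carries ovalbumin and no longer responds to targeted therapy. All tumours grew in Rag2-/- mice, received ovalbumin-specific OT-1 CD8+ T cells by adoptive cell transfer (ACT) on day 7, and were taken on day 10, which was 72 h after ACT.

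There were 4 libraries with 1 library for each group, and each library was made from 3 tumours mixed before the assay. In the CTRL group the RTT line carried an mCherry vector and the mice were not given either drug. In the IRF3/7 group the RTT cancer cells overexpressed the transcription factors Irf3 and Irf7. In the COX2i group mice with RTT mCherry tumours were given celecoxib, an inhibitor of the prostaglandin-producing enzyme COX2. In the COX2i + 5-AZA group they were given celecoxib together with 5-azacytidine, a DNA methyltransferase inhibitor. With 1 pooled library per group there was no replicate, so no test was made between groups, and every interval given is a 95% interval for counting error alone. Rag2-/- hosts have no T or B cells of their own, so the lymphocytes present were natural killer (NK) cells and transferred T cells.

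GBPs are among the genes most strongly induced by interferon-γ (IFNγ), and type I interferons also induce them. The proteins gather on the membranes of vacuoles and bacteria inside the cell, break them open or coat them, and thereby expose ligands to inflammasomes and other cytosolic sensors. Macrophages and monocytes are the cells in which these functions are best known, and GBP transcripts are widely used as a readout of interferon exposure in tumours.

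The genes lay in 2 clusters on GRCm38. On the plus strand of chromosome 3, 5 members filled chr3:142493978-142638008 in the order Gbp5 (ENSMUSG00000105504, chr3:142493978-142522344), Gbp7 (ENSMUSG00000040253, chr3:142530342-142550149), Gbp3 (ENSMUSG00000028268, chr3:142560026-142573209), Gbp2b (ENSMUSG00000040264, chr3:142594847-142619179) and Gbp2 (ENSMUSG00000028270, chr3:142620602-142638008). On the minus strand of chromosome 5, the members were Gbp8 (ENSMUSG00000034438, chr5:105014150-105139540), Gbp9 (ENSMUSG00000029298, chr5:105077630-105139539) and Gbp4 (ENSMUSG00000079363, chr5:105115767-105139586), whose annotated spans overlapped each other. Promoter windows of 300 bases (250 before to 50 after the transcription start; RefSeq, GRCm38.p6) were at hand for the 5 members of chromosome 3, with 6 windows because Gbp3 had 2 starts. The core of the interferon-stimulated response element (ISRE), GAAANNGAAA or its reverse complement TTTCNNTTTC, occurred in a window of 5 of the 5 members, compared with 3.44% of all 32851 promoter windows. The 30 bases around each core are shown because each of these members had the pattern in a window, while the second Gbp3 window held none. All are on the plus strand, the core is in capitals, and each core reads as its reverse complement.
Gbp5, chr3:142496759-142496788: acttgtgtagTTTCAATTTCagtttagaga
Gbp7, chr3:142530273-142530302: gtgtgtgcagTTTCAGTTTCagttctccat
Gbp3, chr3:142559992-142560021: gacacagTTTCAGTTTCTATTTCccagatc
Gbp2b, chr3:142594700-142594729: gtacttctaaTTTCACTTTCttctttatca
Gbp2, chr3:142620594-142620623: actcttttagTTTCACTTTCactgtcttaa

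Counted from the RefSeq start, the cores began at -165 in Gbp5, -137 in Gbp2b, -59 in Gbp2, -53 in Gbp7 and -45 in Gbp3. The Gbp3 promoter held 2 overlapping cores, and the Gbp2 core lay within a first exon of the GENCODE annotation. These letter matches describe the windows and were not tested for binding.

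The table held 34447 cells in 17 classes named by the authors. Libraries had 6329 to 10032 cells and 26356819 to 78722763 unique molecular identifiers (UMIs, each a counted molecule), with the IRF3/7 library the shallowest at a median of 3168 UMIs per cell against 6039.5 to 7502 in the others. No full cell barcode was shared between libraries. Between 28.1% and 31.7% of the cells of a library had a droplet barcode that also occurred in another library. The make-up of the libraries differed greatly. Monocyte classes (Infl_Mono, Monocyte_1 and Monocyte_3) made up 1.55% of cells in CTRL, 6.11% in COX2i, 46.7% in COX2i + 5-AZA and 72.6% in IRF3/7. Macrophage classes (the TAM classes, Ctsk_Macro and Macro) made up 83.5%, 74.7%, 41.0% and 6.94% of cells in the same order.

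Markers went against the labels in a few places that touch the results. The class named Myofibrobl held Ptprc, the gene for CD45, at 18.3 to 37.4 CPM (UMIs of the gene per 1000000 UMIs), compared with 663 to 816 CPM in Infl_Mono. Its 3 measured non-immune markers (Col1a1, Col6a3 and Pmel) summed to 4171 to 7825 CPM, so it was treated here as a non-immune class within the CD45+ sort. The 93 Infl_Mono cells of CTRL carried the 5 macrophage markers (C1qa, C1qb, Apoe, Mrc1 and Adgre1) at a summed 48333 CPM, against 16113 CPM in COX2i, 9121 CPM in IRF3/7 and 6273 CPM in COX2i + 5-AZA. Their 5 measured monocyte markers were lower, with 5184 CPM against 8069, 12860 and 9788 CPM. The part that this played in differences from CTRL within Infl_Mono was not tested.

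Each member was first measured in monocytes and macrophages together (MoMac). The level is the gene's share of all UMIs of those cells, in CPM, and a member is called higher or lower where the ratio between libraries was at least 2-fold with at least 20 UMIs over both. All 8 members were highest in IRF3/7 or COX2i + 5-AZA, lowest in CTRL, and intermediate in COX2i. The 3 comparisons with CTRL share that library, so its error enters all of them.

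Gbp2, which gathers on pathogen vacuoles in mouse macrophages, stood at 82.0 CPM in CTRL, 345 CPM in COX2i, 1629 CPM in IRF3/7 and 1660 CPM in COX2i + 5-AZA. The log2 ratio to CTRL was 2.07 (2.03 to 2.12) for COX2i, 4.31 (4.27 to 4.36) for IRF3/7 and 4.34 (4.30 to 4.38) for COX2i + 5-AZA. The last pair of libraries lay next to each other, far above COX2i alone. Gbp5, which promotes assembly of the NLRP3 inflammasome, rose from 23.6 CPM in CTRL to 66.8 CPM in COX2i, 374 CPM in COX2i + 5-AZA and 662 CPM in IRF3/7. IRF3/7 lay above COX2i + 5-AZA by 0.82 (0.79 to 0.85) on the log2 scale, which turned to 0.46 in favour of COX2i + 5-AZA under the class mix of IRF3/7. Gbp2b, the gene formerly named Gbp1, was at 2.05 CPM or 112 UMIs in CTRL, and reached 13.5 CPM in COX2i, 66.0 CPM in IRF3/7 and 135 CPM in COX2i + 5-AZA.

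Gbp7, linked to the delivery of oxidase and autophagy proteins to bacteria, had one of the smallest ranges. It went from 64.6 CPM in CTRL to 98.9 CPM in COX2i, 313 CPM in COX2i + 5-AZA and 346 CPM in IRF3/7. Gbp3 followed with 35.7, 97.0, 281 and 367 CPM in the same order. On chromosome 5, Gbp4 went from 10.5 CPM in CTRL to 42.2 CPM in COX2i, 305 CPM in COX2i + 5-AZA and 330 CPM in IRF3/7. In the same order, Gbp8 was at 17.4, 31.6, 258 and 264 CPM, and Gbp9 at 29.4, 33.7, 131 and 226 CPM. Of the transcript stretches of 50 bases in Gbp8, 21.2% also occurred in another Gbp gene, compared with 12.8% in Gbp4, 9.56% in Gbp9, at most 4.79% in the 4 others that shared any and 0% in Gbp5. The probe sequences were not used here, so counts of Gbp8, Gbp4 and Gbp9 are uncertain to that extent.

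**Figure D1:**
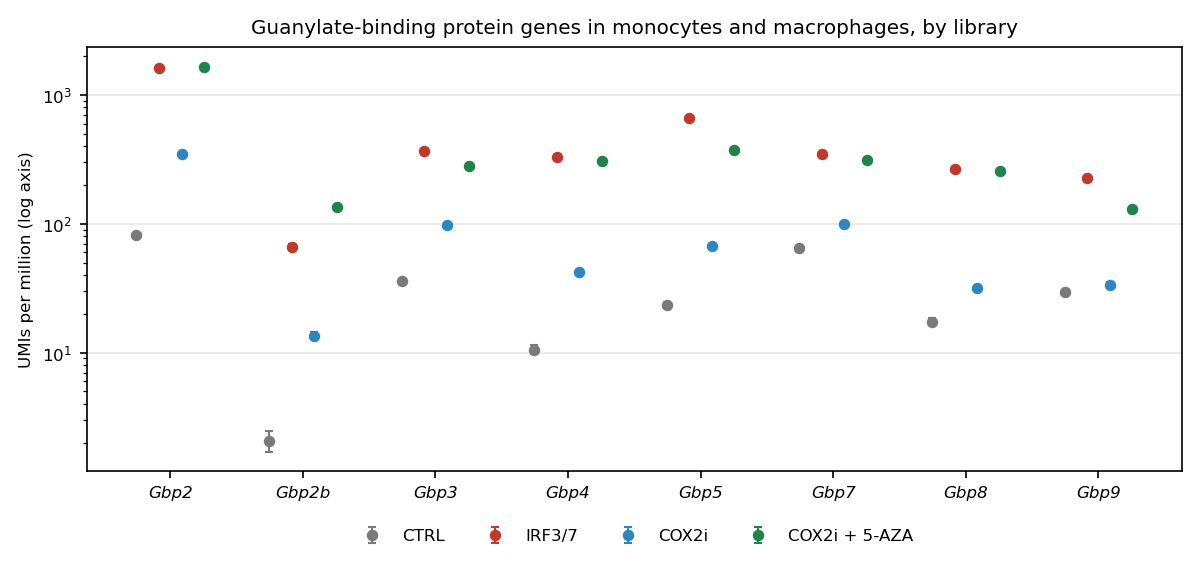
Level of each member in monocytes and macrophages, in CPM on a log axis. Each point is 1 library and bars are exact Poisson 95% intervals; CTRL is the lowest point of every member, and IRF3/7 and COX2i + 5-AZA are the 2 highest, as for Gbp2 with 1629 and 1660.

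Against CTRL, 8 of 8 members were at least 2-fold higher in IRF3/7, where 9.16% of the genes with enough UMIs were higher and 32.2% lower. The members' median log2 ratio was 4.12, from 2.42 for Gbp7 to 5.01 for Gbp2b, while the median over all genes was -0.55. In COX2i + 5-AZA 8 of 8 were higher than in CTRL, compared with 5.65% of genes higher and 11.3% lower, with a median of 3.94 (all genes -0.16). In COX2i 5 of 8 were higher than in CTRL, compared with 1.93% of genes higher and 4.7% lower, with a median of 1.47 (all genes 0.01). The 3 members short of 2-fold were Gbp8 with a log2 ratio of 0.86 (0.75 to 0.97), Gbp7 with 0.61 (0.55 to 0.67) and Gbp9 with 0.20 (0.10 to 0.29). No member was lower in any of these comparisons.

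Adding 5-azacytidine to celecoxib took 8 of 8 members up by at least 2-fold, compared with 6.16% of genes higher and 9.77% lower. The median log2 ratio was 2.38 (all genes -0.19), from 1.53 for Gbp3 to 3.32 for Gbp2b. The order of the members changed between these steps. Both steps share the COX2i library, so its error enters them in opposite directions. Relative to Gbp2 in the same cells, Gbp8 lagged in COX2i against CTRL, its log2 ratio being 1.21 (1.09 to 1.34) smaller than that of Gbp2. In COX2i + 5-AZA against COX2i it led, with a log2 ratio 0.76 (0.69 to 0.83) larger. Gbp4 kept pace with Gbp2 in the first step (difference -0.07, -0.21 to 0.06) and exceeded it in the second by 0.59 (0.53 to 0.65). Gbp9 and Gbp7 fell short of Gbp2 in both, by 1.88 and 1.46 in the first and by 0.31 and 0.60 in the second. Gbp2b exceeded Gbp2 in both, by 0.65 (0.36 to 0.94) and 1.05 (0.95 to 1.16).

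Within TAM_C1q, the complement-expressing macrophages, Gbp8 was at 18.3 CPM in CTRL (429 UMIs), 18.8 CPM in COX2i (299 UMIs) and 134 CPM in COX2i + 5-AZA (1873 UMIs), so that CTRL and COX2i differed by less than the counting error. Gbp9 was likewise at 27.7 and 25.2 CPM and then 83.1 CPM. Gbp2 in these cells had already moved from 42.6 to 130 CPM with celecoxib and stood at 460 CPM with both drugs. The macrophage markers of TAM_C1q summed to 59464, 29932 and 32380 CPM in CTRL, COX2i and COX2i + 5-AZA, and its cDC2 markers to 149, 362 and 808 CPM. In TAM_cycling these sums were 41040, 23058 and 22668 CPM and 660.4, 1027 and 2320 CPM. The part of these shifts in the GBP ratios was not tested. The lag of Gbp8 behind Gbp2 did not hold in every class. In the pooled monocyte classes the log2 ratios of COX2i to CTRL were 0.99 for Gbp8 and 1.03 for Gbp2, and in Ctsk_Macro they were 4.14 and 3.77.

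The comparison of COX2i + 5-AZA with IRF3/7 in MoMac depended on the class mix. Under the class mix of IRF3/7 all 8 members were higher in COX2i + 5-AZA, with log2 ratios from 0.23 to 1.22, while without it 6 of them (Gbp3, Gbp4, Gbp5, Gbp7, Gbp8 and Gbp9) were below 0. The values that follow are those without reweighting. Only Gbp2b was at least 2-fold higher in COX2i + 5-AZA (log2 ratio 1.03, 0.95 to 1.12), where 20.8% of genes were higher, and no member was 2-fold lower, where 6.63% of genes were. The members' median was -0.13 with a median over all genes of 0.33. The log2 ratio of Gbp2 was 0.03 (0.01 to 0.05) and turned to -0.32 with median-of-ratios size factors, which moved the typical gene of this comparison by -0.35. With that scaling Gbp2b fell under 2-fold (0.69), and Gbp5 and Gbp9 were at least 2-fold lower (-1.17 and -1.13). The same scaling moved the typical gene of IRF3/7 against CTRL by 0.51, and those of COX2i + 5-AZA against CTRL and against COX2i by 0.16 each, and left all 8 members 2-fold higher in these 3.

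MoMac was then split into monocytes and macrophages, since their shares differed between libraries. Within the monocyte classes, Gbp2 was high in every library, with 1680 CPM in CTRL, 1743 CPM in IRF3/7, 3419 CPM in COX2i and 3039 CPM in COX2i + 5-AZA. The pooled IRF3/7 and CTRL monocytes differed by less than counting error for this gene (log2 ratio 0.05, -0.03 to 0.14). The same held for Gbp3 (0.15, -0.04 to 0.34) and Gbp7 (0.14, -0.06 to 0.34). Gbp8 and Gbp2b were the members that differed most within monocytes. Gbp8 was at 90.9 CPM in CTRL (63 UMIs), 180 CPM in COX2i, 272 CPM in IRF3/7 and 407 CPM in COX2i + 5-AZA. Gbp2b was at 18.8 CPM in CTRL (13 UMIs), 64.7 CPM in IRF3/7, 150 CPM in COX2i and 177 CPM in COX2i + 5-AZA. The monocyte pool differed in class, however. Infl_Mono made up 93 of 139 monocytes in CTRL and 4335 of 4596 in IRF3/7, while Monocyte_1 made up 394 of 558 in COX2i and 3640 of 4684 in COX2i + 5-AZA. Gbp2 went opposite ways within these classes, with 966 CPM in CTRL and 1768 CPM in IRF3/7 for Infl_Mono, but 3401 CPM in CTRL (44 cells, 696 UMIs) and 1264 CPM in IRF3/7 for Monocyte_1.

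Within the macrophage classes every member was lowest in CTRL. Gbp2 was at 61.5 CPM in CTRL, 225 CPM in COX2i, 835 CPM in COX2i + 5-AZA and 899 CPM in IRF3/7. Gbp4 was at 8.41, 31.1, 184 and 210 CPM, and Gbp5 at 17.3, 47.4, 209 and 333 CPM in the same order. The log2 ratios of IRF3/7 to CTRL macrophages ran from 2.18 (2.06 to 2.30) for Gbp7 to 5.35 (4.99 to 5.72) for Gbp2b. Different classes made up the macrophages of these libraries, with 385 of 439 in IRF3/7 being TAM_H2Ab1, a class with 19 cells in CTRL. Within that class the levels of all 8 members were the other way round, higher in those 19 cells. Gbp2 was at 4191 CPM in CTRL (501 UMIs) and 891 CPM in IRF3/7, Gbp2b at 276 CPM (33 UMIs) and 81.1 CPM, and Gbp8 at 376 CPM (45 UMIs) and 230.3 CPM. Reweighting to a common class mix could cover 3 classes and 20.9% of CTRL MoMac cells for IRF3/7 against CTRL, with 95.8% of the weight on 20 TAM_cycling cells of IRF3/7, and there the log2 ratio of Gbp2 was 2.16. For COX2i + 5-AZA against CTRL the mix covered 7 classes and 99.7% of cells, and Gbp2 was at 3.32.

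**Figure D2:**
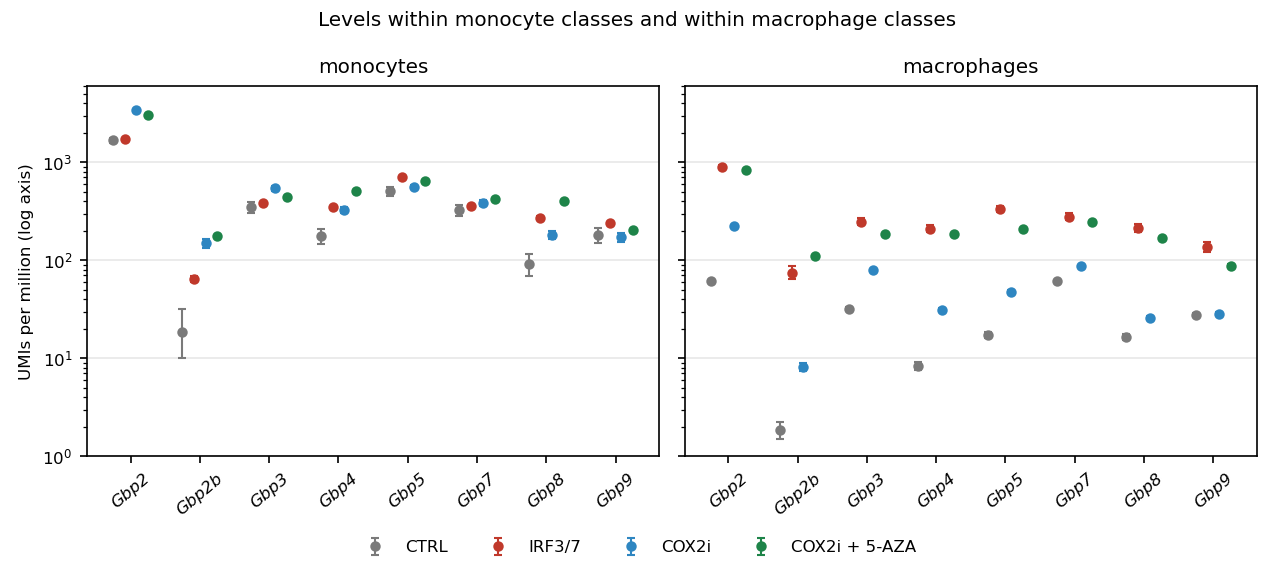
Level of each member within monocyte classes (left) and macrophage classes (right), in CPM on a log axis, with exact Poisson 95% intervals for 1 library each. In monocytes the 4 libraries lie furthest apart for Gbp2b (18.8 to 177). Gbp2 (1680 to 3419), Gbp4 (176 to 509) and Gbp8 (90.9 to 407) also span at least 2-fold there. The pools differ in class, and Infl_Mono alone runs from 966 to 4116 for Gbp2. In macrophages CTRL is the lowest for every member and COX2i lies with CTRL for Gbp9 (27.5 and 28.3).

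Comparisons inside named classes were made where both libraries had at least 50 cells. With celecoxib alone, the members at least 2-fold higher than CTRL numbered 3 of 8 in TAM_C1q (1.61% of genes), 4 of 7 with enough UMIs in TAM_Spp1 (1.55%), 5 of 8 in TAM_cycling (1.62%) and 5 of 7 in cDC2, a conventional dendritic cell class (3.52%). Gbp2 and Gbp4 passed in all 4, and Gbp7 and Gbp9 in none of them. Ctsk_Macro, with 380 cells in CTRL and 157 in COX2i, gave larger ratios, and 7 of 7 members with enough UMIs were 2-fold higher there (4.02% of genes). Gbp2 went from 58.0 to 793 CPM, Gbp7 from 85.0 to 243 CPM, Gbp9 from 15.7 to 65.1 CPM and Gbp8 from 4.196 CPM (16 UMIs) to 73.7 CPM (120 UMIs). The macrophage markers of the class summed to 26964 CPM in CTRL and 9358 CPM in COX2i, and the part of this in the ratios was not tested. Adding 5-azacytidine took 7 of 8 members up 2-fold in TAM_C1q (4.16% of genes), 4 of 8 in TAM_Spp1 (3.12%), 8 of 8 in TAM_cycling (4.1%) and 8 of 8 in cDC2 (3.44%). In cDC2 Gbp8 went from 20.1 CPM in CTRL to 41.5 CPM in COX2i and 263 CPM in COX2i + 5-AZA, next to 227 CPM in IRF3/7. All 7 members with enough UMIs were 2-fold higher in IRF3/7 cDC2 than in CTRL cDC2 (6.01% of genes). The monocyte markers of cDC2 moved with the library, summing to 1332 CPM in CTRL, 1549 CPM in COX2i, 2991 CPM in COX2i + 5-AZA and 8418 CPM in IRF3/7, and their part in the ratios was not tested.

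Ratios between the drug groups were smaller in Monocyte_1, where the members' median log2 ratio was 0.14 (all genes -0.07). In its 394 cells of COX2i and 3640 cells of COX2i + 5-AZA no member was at least 2-fold higher. Of all genes 3.42% were, and a count of 0 is close to that share. Gbp2 was at 3757 CPM with celecoxib and 2827 CPM with both drugs, a log2 ratio of -0.41 (-0.45 to -0.37). Gbp8 was the furthest up, from 223 to 418 CPM. These cells were already at the upper end for Gbp2 in COX2i, where they held 25.0% of all Gbp2 UMIs and made up 4.31% of cells. NK cells, with 50 in COX2i and 437 in COX2i + 5-AZA, had 1 of 8 members 2-fold higher (7.8% of genes), Gbp2b with 0 and 60 UMIs. Gbp2 differed there by -0.15, Gbp3 by -0.06 and Gbp9 by 0.05 on the log2 scale, while the NK markers of the class summed to 3406 and 10267 CPM, whose part was not tested. In Infl_Mono 3 of 8 were 2-fold higher with both drugs (4.08% of genes), while Gbp3 was at -0.06.

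In Infl_Mono, the inflammatory monocytes, Gbp2 stood at 966 CPM in CTRL, 1768 CPM in IRF3/7, 2548 CPM in COX2i and 4116 CPM in COX2i + 5-AZA. Against CTRL, 3 of 8 members were 2-fold higher in IRF3/7 (6.17% of genes), 2 of 7 in COX2i (3.7%) and 5 of 8 in COX2i + 5-AZA (6.04%). Gbp8 was at 53.7 CPM in CTRL (26 UMIs), 75.3 CPM in COX2i (46 UMIs), 265 CPM in IRF3/7 and 343 CPM in COX2i + 5-AZA. The CTRL value rests on the 93 cells that carried macrophage markers, given above. The 4 neutrophil markers also moved within Infl_Mono, summing to 299 CPM in CTRL, 362 CPM in COX2i, 1377 CPM in IRF3/7 and 4897 CPM in COX2i + 5-AZA, the library whose Neutro class had Gbp2 at 3847 CPM. Their part in the ratios, here and between COX2i + 5-AZA and IRF3/7, was not tested.

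In 3 of the classes shared by COX2i + 5-AZA and IRF3/7, all members lay higher in COX2i + 5-AZA. All 8 had a log2 ratio above 0 in Infl_Mono, from 0.24 for Gbp9 to 1.22 (1.19 to 1.25) for Gbp2. All 8 were also above 0 in Monocyte_1, where the lowest was Gbp8 at 0.03 (-0.14 to 0.21), and in TAM_H2Ab1, where the lowest was Gbp9 at 0.12 (-0.09 to 0.32). The median over all genes was 0.09, 0.01 and 0.05 in these 3 classes. Members at least 2-fold higher numbered 1 in Infl_Mono (5.85% of genes higher, 4.69% lower), 1 in Monocyte_1 (7.97% higher) and 3 in TAM_H2Ab1 (8.25% higher). Gbp2 was the 1 in the first pair of classes, and Gbp2, Gbp2b and Gbp4 were the 3 in TAM_H2Ab1. In that class the macrophage markers summed to 24991 CPM in COX2i + 5-AZA and 35365 CPM in IRF3/7 and the monocyte markers to 2632 and 4843 CPM, and their part in the ratios was not tested. Reweighted to the class mix of IRF3/7, which gave 83.6% of the weight to Infl_Mono, the log2 ratio of Gbp2 was 1.22 in place of 0.03, and that of Gbp5 was 0.46 in place of -0.82. Other classes ran the other way for some members. The log2 ratio was -0.97 for Gbp5 and -0.78 for Gbp7 in DC3, -0.30 and -0.37 for the same genes in cDC2, and -0.47 for Gbp2 and -1.16 for Gbp7 in Myofibrobl.

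**Figure D3:**
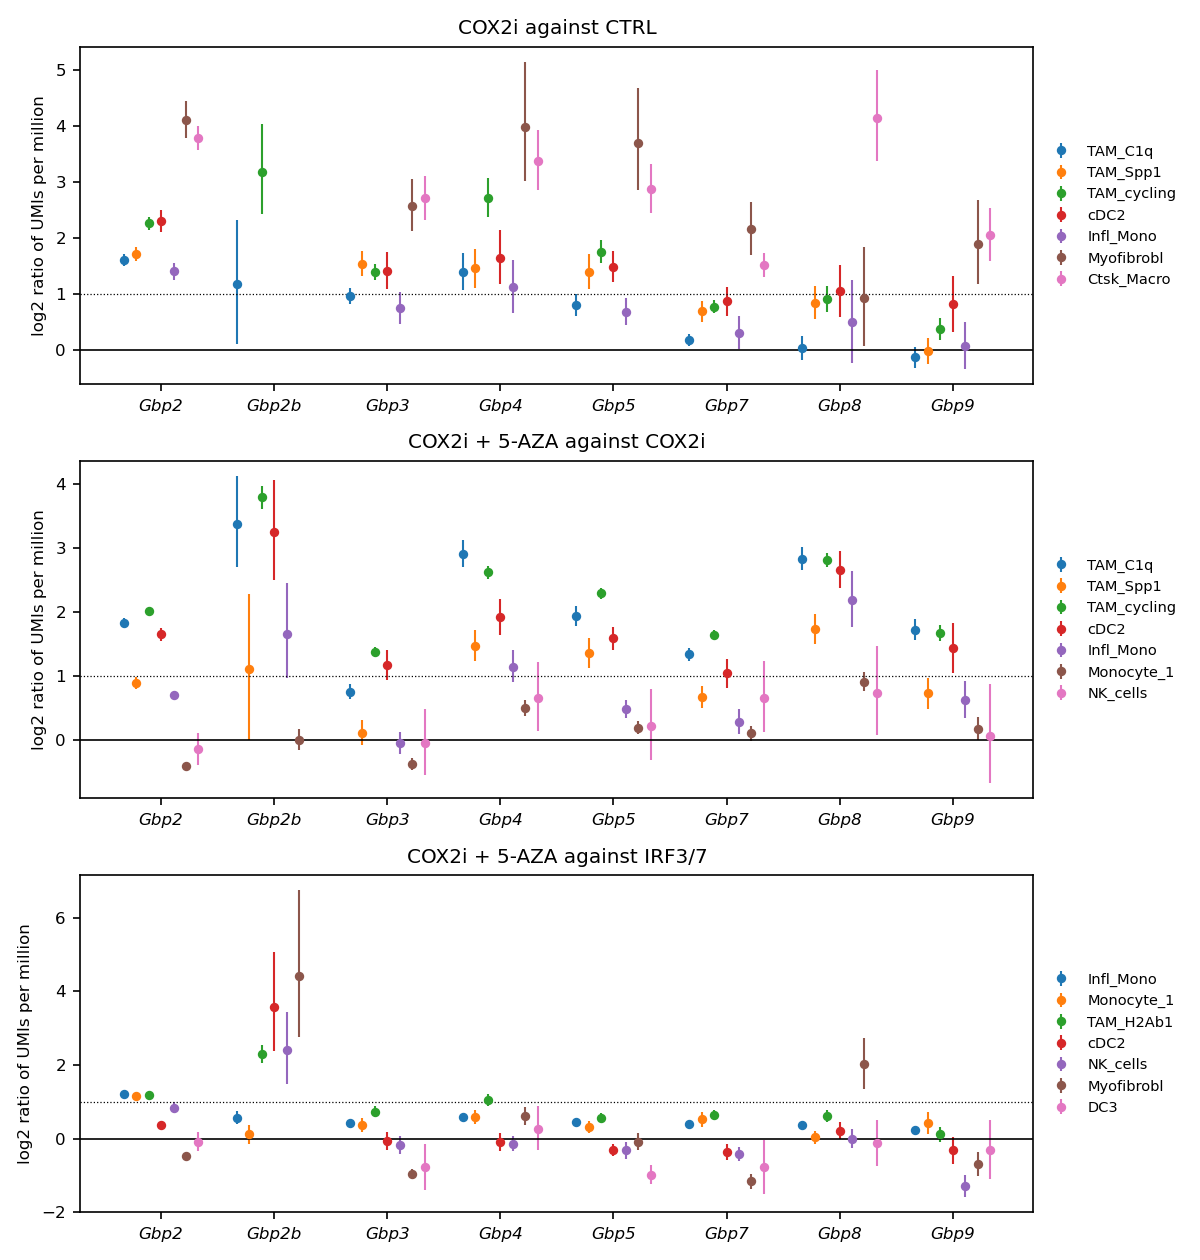
Log2 ratio of each member between 2 libraries inside single cell classes, with 95% exact conditional intervals; the dotted line is 2-fold and points with fewer than 20 UMIs over both libraries are left out, as is Gbp2b where a library had 0. Top, COX2i against CTRL, where Gbp9 is at -0.13 in TAM_C1q and 2.05 in Ctsk_Macro; middle, COX2i + 5-AZA against COX2i, where Monocyte_1 lies between -0.41 and 0.90; bottom, COX2i + 5-AZA against IRF3/7, where Infl_Mono, Monocyte_1 and TAM_H2Ab1 lie above 0 for all 8 members and DC3 and Myofibrobl partly below.

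The members were not distributed alike over the classes. Gbp2b varied widely between them. In COX2i + 5-AZA it was at 659 CPM in the class Macro, 398 CPM in TAM_H2Ab1 and 197 CPM in Monocyte_1, each step beyond counting error, and at 3.77 CPM in TAM_Spp1 (19 UMIs). In IRF3/7 the order was Monocyte_1 with 182 CPM, TAM_H2Ab1 with 81.1 CPM and Infl_Mono with 59.1 CPM. In COX2i Monocyte_1 with 198 CPM stood far above Infl_Mono with 27.8 CPM (17 UMIs) and every other class of at least 50 cells. Smaller classes were higher, Macro with 352 CPM (72 UMIs in 23 cells) and TAM_H2Ab1 with 306 CPM (84 UMIs in 41 cells). Monocyte_1 was at 182 to 198 CPM in these 3 libraries and at 58.6 CPM in CTRL (12 UMIs in 44 cells). Between COX2i + 5-AZA and either COX2i or IRF3/7, Gbp2b differed there by less than counting error.

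Gbp5 was highest in a dendritic cell class in IRF3/7. The 66 DC3 cells were at 1236 CPM, compared with 726 CPM in Infl_Mono, 516 CPM in cDC2 and 463 CPM in Monocyte_1. In COX2i + 5-AZA DC3 was at 629 CPM, below Monocyte_3 with 1141 CPM and Infl_Mono with 998 CPM. In that library Neutro (634 CPM) and DC3 did not differ beyond counting error, and neither did DC3 and Monocyte_1 (573 CPM). The markers of DC3 differed as well, with monocyte markers at a summed 4064 CPM in IRF3/7 and 1005 CPM in COX2i + 5-AZA, macrophage markers at 447 and 2106 CPM, and markers of CCR7 dendritic cells at 7805 and 14121 CPM. Their part in the Gbp5 values was not tested.

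In NK cells the members split. Gbp2 was at 295 CPM in IRF3/7 and 527 CPM in COX2i + 5-AZA, whereas Gbp9 was at 168 CPM and 69.1 CPM. Gbp9 was the 1 member at least 2-fold lower (log2 ratio -1.28, -1.59 to -0.99), where 2.51% of genes were lower, and Gbp2b the 1 at least 2-fold higher (2.41, 1.50 to 3.44; 12 and 60 UMIs), where 5.94% were higher. Gbp8, at 130 CPM in both, showed no difference beyond counting error (log2 ratio -0.00, -0.26 to 0.26). The NK class carried monocyte markers at a summed 4778 CPM in IRF3/7 and 2810 CPM in COX2i + 5-AZA, and macrophage markers at 1047 and 3522 CPM, and their part in these ratios was not tested.

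Neutrophils (Neutro) could be compared between CTRL with 65 cells and COX2i + 5-AZA with 196. All 8 members were at least 2-fold higher with both drugs (7.58% of genes), and Gbp2 had the largest ratio, from 84.2 CPM (26 UMIs) to 3847 CPM, a log2 ratio of 5.51 (4.96 to 6.13). The CTRL cells of this class carried the macrophage markers at a summed 33355 CPM and the 4 neutrophil markers at 25235 CPM, against 4439 and 93417 CPM in COX2i + 5-AZA. The part of this in the ratio was not tested.

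**Figure D4:**
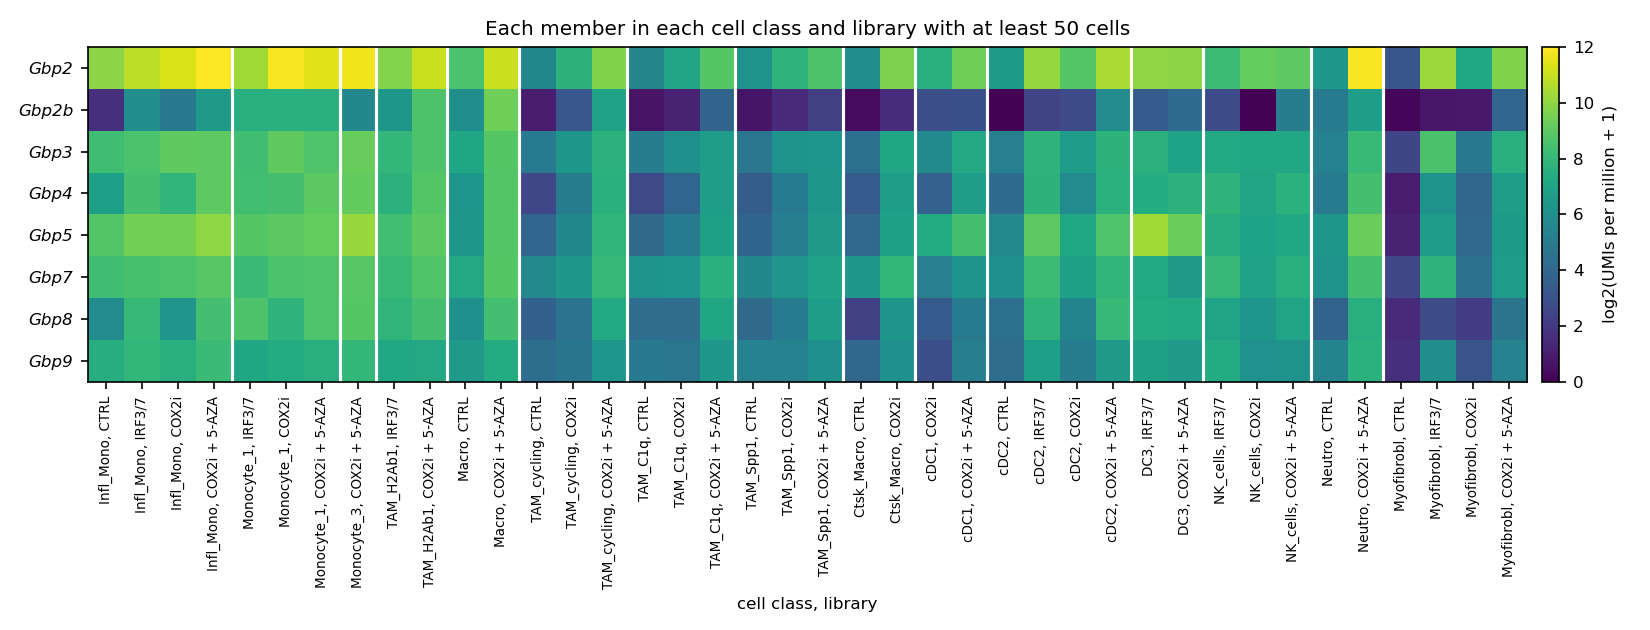
Level of each member as log2(CPM + 1) in the 40 class and library profiles with at least 50 cells. Rows are read across profiles: Gbp5 is brightest in DC3 of IRF3/7 (1236 CPM), and Gbp8 is far darker in Myofibrobl of IRF3/7 (5.80 CPM) than in Infl_Mono of the same library (265 CPM).

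The Myofibrobl class, which was non-immune by its markers, differed from the immune classes in its GBP levels. In IRF3/7 most of its cells had at least 10 UMIs of the overexpressed Irf7, counted below. In the other 3 libraries, stromal cells and cancer cells cannot be told apart with the markers measured here. In CTRL its 554 cells had almost no GBP transcript, with Gbp2 at 8.20 CPM (79 UMIs) and Gbp3 at 4.67 CPM. Gbp2 was at 140 CPM in COX2i, 859 CPM in COX2i + 5-AZA and 1192 CPM in IRF3/7, where the class had 172 cells. The log2 ratio of IRF3/7 to CTRL was 7.18 (6.86 to 7.52), the largest of any member in a class compared between these libraries. Gbp3 was at 27.8, 193 and 376 CPM, and Gbp7 went from 4.88 CPM in CTRL to 21.6, 99.1 and 221 CPM. The members at least 2-fold higher than CTRL numbered 7 of 7 in IRF3/7 (6.07% of genes), 6 of 7 in COX2i (4.54%) and 8 of 8 in COX2i + 5-AZA (5.53%). Macrophage markers in the class summed to 2517 CPM in CTRL, 1939 CPM in COX2i, 987 CPM in COX2i + 5-AZA and 254 CPM in IRF3/7. Neutrophil markers were at 213, 10.003, 46.2 and 331 CPM and monocyte markers at 137, 257, 269 and 303 CPM in the same order. The part of these markers in the ratios was not tested.

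Gbp8 stood apart in these cells. It was at 1.76 CPM in CTRL (17 UMIs), 3.33 CPM in COX2i (39 UMIs), 5.80 CPM in IRF3/7 (26 UMIs) and 23.4 CPM in COX2i + 5-AZA (66 UMIs). Its log2 ratio of IRF3/7 to CTRL was 5.47 (4.53 to 6.41) below that of Gbp2. For every 100 Gbp2 UMIs of IRF3/7, the class had 0.486 Gbp8 UMIs (0.317 to 0.713), while Infl_Mono had 15.02 (14.5 to 15.5). Gbp2b had 0.0561 (0.0116 to 0.164, from 3 UMIs) against 3.34, and Gbp5 8.08 against 41.1. The ratio of Gbp7 was close in both classes, with 18.6 and 20.4, and that of Gbp3 was higher in Myofibrobl, with 31.5 against 22.0. In COX2i + 5-AZA Gbp8 had 2.73 per 100 Gbp2 UMIs in Myofibrobl and 8.34 in Infl_Mono. GBP counts in Myofibrobl were thus not in the proportions seen in Infl_Mono cells of the same library.

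The overexpressed factors could be seen in the same cells. Irf7 in Myofibrobl was at 14910 CPM in IRF3/7 and at 8.20 to 67.1 CPM in the other libraries, and Irf3 was at 584 CPM against 24.5 to 35.1 CPM. At least 10 Irf7 UMIs were found in 155 of 172 Myofibrobl cells of IRF3/7 (90.1%, 84.6 to 94.1), compared with 1 of 554 in CTRL, 4 of 913 in COX2i and 4 of 160 in COX2i + 5-AZA. In Infl_Mono Irf7 was at 3354 CPM in IRF3/7 and 1295 to 1456 CPM in the others, and Irf3 was at 28.9 to 43.7 CPM in all 4. Whether the level of Irf7 bears on the GBP levels of a Myofibrobl cell was not tested.

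To compare how many cells carried the family, each cell with at least 2000 UMIs was thinned to 2000 UMIs. In CTRL, 72.6% of 7268 macrophages had no UMI of any member, as had 60.6% of 6701 in COX2i, 21.6% of 4036 in COX2i + 5-AZA and 13.5% of 407 in IRF3/7. Cells with at least 4 members made up 0.715%, 3.28%, 22.7% and 29.7% of macrophages in that order. In monocytes the share with no member was 14.2% in CTRL, 4.29% in COX2i, 4.85% in IRF3/7 and 1.57% in COX2i + 5-AZA, and the share with at least 4 was 34.3%, 54.9%, 51.6% and 69.0%. The mean number of members per monocyte was 2.72 in CTRL, 3.49 in IRF3/7, 3.61 in COX2i and 4.25 in COX2i + 5-AZA. Thinning left out 207, 119, 81 and 32 macrophages that were too shallow in CTRL, COX2i, COX2i + 5-AZA and IRF3/7. It left out 5, 68, 411 and 943 monocytes in the same order, of 139, 558, 4684 and 4596.

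Gbp2 was spread unevenly over macrophages. It was detected in 5.67% of thinned macrophages in CTRL, 15.9% in COX2i, 49.9% in COX2i + 5-AZA and 62.2% in IRF3/7. Without thinning the shares were 13.1%, 33.0%, 73.6% and 76.1% at median depths of 6303, 7985.5, 9446 and 4683 UMIs. Had the UMIs of the thinned cells been scattered at random, 12.2% of CTRL and 35.1% of COX2i macrophages would have shown the gene, compared with the 5.67% and 15.9% observed, and 80.1% and 80.7% in COX2i + 5-AZA and IRF3/7. The variance of the thinned count divided by its mean was 6.31 in CTRL, 5.89 in COX2i, 4.81 in COX2i + 5-AZA and 2.73 in IRF3/7. Part of the spread was between classes, since in CTRL 19 TAM_H2Ab1 cells held 501 and 73 Macro cells held 193 of the 3319 unthinned Gbp2 UMIs of macrophages. Free RNA in droplets was not measured. Of thinned Myofibrobl cells, 1.48% showed Gbp2 in CTRL (8.12% unthinned, at a median depth of 15007.5 UMIs). The shares were 9.02% in COX2i, 55.3% in IRF3/7 and 39.6% in COX2i + 5-AZA. The part of free RNA in these shares, as against transcripts of the cells themselves, was not tested.

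**Figure D5:**
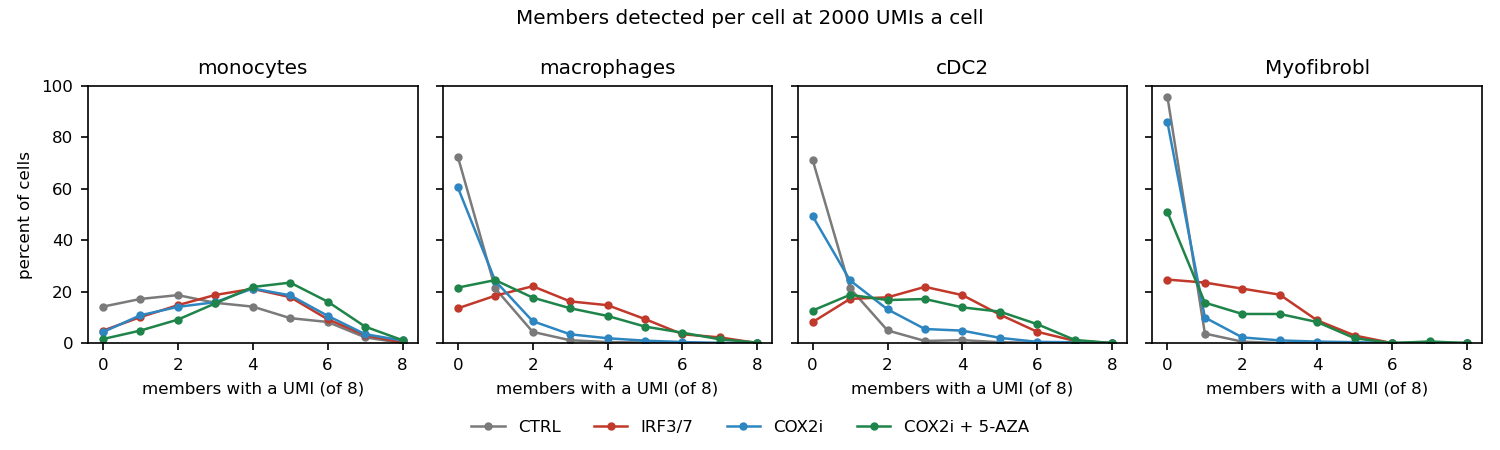
Number of members with at least 1 UMI per cell, after thinning to 2000 UMIs, as a percentage of the cells of each library in monocytes, macrophages, cDC2 and Myofibrobl. CTRL and COX2i macrophages peak at no member (72.6% and 60.6%), while COX2i + 5-AZA monocytes are spread around 4 to 5 members and 69.0% have at least 4.

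The members followed each other and a few other genes across classes. Over the 40 profiles of 15 classes, Pearson's r between members, of log2(CPM + 1), ran from 0.676 for Gbp2b and Gbp9 to 0.965 for Gbp2 and Gbp3, with a median of 0.870. Profiles of a library share its depth and its mice, so these are descriptions. Among 11466 genes, the closest to Gbp2, Gbp3, Gbp4 and Gbp7 was Igtp, an immunity-related GTPase, with r of 0.949, 0.957, 0.933 and 0.915. Tapbp, the tapasin gene of antigen presentation, was among the closest to Gbp5 (r = 0.953). Gbp8 was most like B2m (0.921) and the immunoproteasome gene Psmb10 (0.906), Gbp9 most like the complement gene Cfb (0.924) and Gbp2b most like Il18bp, the decoy receptor of interleukin-18 (0.850).

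The other interferon-inducible GTPases, which act beside GBPs on the same vacuoles, gave a similar picture against CTRL in MoMac and a different one between the top libraries. All 7 measured genes of that list were at least 2-fold higher in IRF3/7 than in CTRL (9.16% of all genes; median log2 ratio 4.16), led by Tgtp1 with 7.39 (0.421 to 70.8 CPM), and 4 of 7 were higher in COX2i (1.93% of all genes; median 1.25). All 7 were higher in COX2i + 5-AZA than in CTRL (5.65% of all genes; median 3.14) and than in COX2i (6.16%; median 1.84). In COX2i + 5-AZA against IRF3/7, 6 of 7 were at least 2-fold lower in MoMac (6.63% of all genes; median -1.09). Irgm1 was at 379 CPM against 828 CPM. Inside Infl_Mono none of the 7 passed 2-fold in that comparison (median -0.20, all genes 0.09).

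Upstream genes were read from lists of the IFNγ and type I interferon routes, with the same shares of all genes past 2-fold in each comparison, 9.16% higher in IRF3/7, 1.93% in COX2i and 5.65% in COX2i + 5-AZA against CTRL, 6.16% in COX2i + 5-AZA against COX2i and 6.63% lower in COX2i + 5-AZA against IRF3/7. Of 12 genes of the IFNγ route, 9 were at least 2-fold higher in IRF3/7 than in CTRL, 5 in COX2i and 8 in COX2i + 5-AZA, and 7 were higher in COX2i + 5-AZA than in COX2i. Irf1, an interferon-induced transcription factor, was at 104, 209, 733 and 1237 CPM in CTRL, COX2i, COX2i + 5-AZA and IRF3/7. Of 9 measured genes of the type I route, 6 were higher in IRF3/7 than in CTRL, none in COX2i and 5 in COX2i + 5-AZA, and 5 were higher in COX2i + 5-AZA than in COX2i (median 1.04). Isg15, an interferon-induced ubiquitin-like modifier, was at 75.6 CPM in CTRL and 5007 CPM in IRF3/7, compared with 626 CPM in COX2i + 5-AZA. Between the last pair, 5 type I genes and 3 of the IFNγ route were at least 2-fold lower in COX2i + 5-AZA, with medians of -2.10 and -0.48. In Infl_Mono of the same comparison 3 type I genes were lower, Irf7 with -1.20, Isg15 with -1.07 and Stat2 with -1.01, where 4.69% of all genes were lower. Of the IFNγ route 1 gene was lower there, Ifng with 1 and 19 UMIs. All 8 GBP genes had ratios above 0 in these cells.

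Genes that work with GBPs were counted in the same way. Of 12 inflammasome genes, 5 were at least 2-fold higher and 1 (Ninj1, log2 ratio -1.01) was lower in IRF3/7 than in CTRL, none passed in COX2i and 3 were higher in COX2i + 5-AZA. Over all genes, 9.16% were higher and 32.2% lower in IRF3/7, 1.93% higher in COX2i and 5.65% higher in COX2i + 5-AZA. The median log2 ratio of the list in IRF3/7 was 0.87, with -0.55 over all genes. The largest ratio was that of Casp4, the sensor of cytosolic lipopolysaccharide, with 24.6 CPM in CTRL and 253 CPM in IRF3/7 (log2 ratio 3.36). Of 11 genes of the ATG8 machinery, which places GBPs on vacuoles, none was 2-fold higher than CTRL in any library, and 1, Gabarapl1, was lower in IRF3/7 (log2 ratio -1.24). The median of this list in IRF3/7 against CTRL was 0.07.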

How the data were processed

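Per the methods of the study and the submitters' processing notes, sorted cells underwent fixation for 22 h, and Chromium Flex counted ligated probe pairs by UMI in 4 probe-barcoded libraries run together. The authors ran Cell Ranger 7.1.0 with an mm10 probe set, filtered cells and genes, removed ribosomal and mitochondrial genes and named the classes after integration. The deposited values were raw UMI counts per gene and cell. The study states a minimum number of detected genes, and 1201 deposited cells had 1000 or fewer; all were kept. No further doublet caller was run. Probe counts depend on probe number, so levels were compared between libraries and classes, not between genes.

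UMIs were summed by library and class. Levels had exact Poisson intervals, ratios exact conditional intervals, shares exact Clopper-Pearson intervals and differences between 2 members' log2 ratios Wald intervals (95%, counting error only, as PCR and sampling of mice are not covered). A count of 3 was the floor. Ratios were called at 2-fold with at least 20 UMIs, in classes with at least 50 cells per library. Named genes were the 8 members, the genes nearest to each by correlation among genes with at least 200 UMIs, and the fixed lists; 1 of the nearest genes and 1 searched promoter motif are not reported here. The members and lists were chosen with earlier results of these data known. Alternatives were another scaling, a filter on detected genes, thinned cells, equal cell weights, removal of the cells with the most UMIs, no UMI minimum, all cells and a common class mix. The procedure was run on simulated Poisson counts, which do not include the spread between cells or mice. Gene positions were from GENCODE and promoters from RefSeq (GRCm38.p6), which matched 5 of 8 members; Gbp4, Gbp8 and Gbp9 had no entry. Python 3.11.15, numpy 2.4.6, scipy 1.17.1, pandas 2.3.3 and matplotlib 3.10.9 were used.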

Additional observations from a re-analysis of the deposited data

Results flagged for a closer look

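The comparison of COX2i + 5-AZA with IRF3/7 went opposite ways in different classes for some members. Gbp2 had a log2 ratio of -0.47 in Myofibrobl and 1.22 in Infl_Mono. Gbp9 had -1.28 in NK cells and 0.42 in Monocyte_1. Gbp3 had a log2 ratio of -0.96 in Myofibrobl and 0.73 in TAM_H2Ab1. Gbp7 had -1.16 in Myofibrobl and 0.65 in TAM_H2Ab1. Gbp5 had -0.97 in DC3 and 0.57 in TAM_H2Ab1. These are the classes furthest apart for each member, and with 1 library per group the difference between classes was not tested. Gbp6, a further family gene that is not among the 8 members, was also in the table. Its log2 ratio to CTRL in monocytes and macrophages was 4.76 in IRF3/7, 1.56 in COX2i and 3.94 in COX2i + 5-AZA.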

How the results depend on the processing

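Of the 5 counts of members at least 2-fold higher in monocytes and macrophages, 4 kept within 1.5 times their value under every alternative run. The count for COX2i + 5-AZA against IRF3/7, 1 member (Gbp2b), became 0 with median-of-ratios size factors, 0 in cells with more than 2000 detected genes and 0 after thinning to 2000 UMIs. In that comparison Gbp5 and Gbp9 passed 2-fold lower with size factors (log2 ratios -1.17 and -1.13) and under the class mix of IRF3/7 Gbp2b lost 2-fold (0.94) and Gbp2 passed it (1.22). Elsewhere Gbp8 in COX2i against CTRL reached 1.10 with equal cell weights, and Gbp3 in COX2i + 5-AZA against COX2i was 0.91 under the class mix of COX2i. The sizes of the ratios were less stable. Under the class mix of CTRL the members' log2 ratios of IRF3/7 to CTRL were 1.14 to 5.94, in place of 2.42 to 5.01. In COX2i + 5-AZA against COX2i every member had its lowest ratio under the class mix of COX2i, where Gbp2 was at 1.27 in place of 2.26. No ratio called without reweighting or rescaling changed sign. In COX2i + 5-AZA against IRF3/7, however, Gbp3, Gbp4, Gbp5, Gbp7, Gbp8 and Gbp9 turned from below 0 to above 0 under the class mix. Gbp5 was then at 0.46 and Gbp9 at 0.23, and Gbp2 turned to -0.32 with size factors. Leaving out a replicate was not run, since each group has 1 library. No paired analysis was possible because each group has 1 library and the labels give no replicate number. Depth limited Gbp2b most, with 112 UMIs in monocytes and macrophages of CTRL.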
